A study of Mus musculus with 4 samples.

Results

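The genes described here encode the enzymes, membrane proteins, proton pump and transcription factors of the lysosome. They were matched by gene symbol to a list whose rule uses no measured value but which was drawn up with earlier results of these data known, and all 43 listed symbols were found among the 22558 genes of the deposited count table. Of the 43 genes, 33 encode lysosomal proteases, glycosidases, lipid hydrolases and their cofactors, membrane proteins or factors of the MiT/TFE family, and 10 encode subunits or accessory proteins of the vacuolar proton pump, the V-ATPase. RNA was measured in sorted lung group 2 innate lymphoid cells (ILC2s), innate lymphocytes that answer IL-33 with type 2 cytokines and carry no antigen receptor. The WT group held 2 libraries from C57BL/6 mice, and the other group held 2 libraries labelled ICAM-1 KO, from mice of the C57BL/6 background with a constitutive disruption of Icam1 (allele Icam1 tm1Jcgr in the study's methods), the gene of an adhesion molecule that binds LFA-1. All mice were 6 weeks old and received 3 intranasal doses of 0.5 µg rmIL-33, lungs were taken on day 4, and each library was a pool of 4 mice, so that neither label holds an unchallenged control. The study sorted CD45+ Lin- cells that carried ST2 and CD127, and the allele was present in every cell of the mouse, not in ILC2s alone.

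Lysosomes break down proteins, sugars and lipids that reach them by endocytosis, phagocytosis or autophagy. Their hydrolases work best in acid, and the V-ATPase supplies it: its V1 sector in the cytosol splits ATP, and its V0 sector in the membrane carries the protons. Factors of the MiT/TFE family (TFEB, TFE3 and MITF) bind E-box sequences in the promoters of many of these genes and can raise them together. In leukocytes, cathepsin proteases also trim antigens and activate granule enzymes, and phagocytes such as macrophages are rich in lysosomes.

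The libraries held 24796148 to 28782471 expected counts each. Pearson correlations of log2 CPM were 0.966 within WT, 0.969 within the other label and 0.93 to 0.938 between labels. For Icam1 the expected counts were 2579 and 2630 in WT against 2812 and 3453 (edgeR, adjusted p = 0.0745). Its RNA was thus not lower where the label says knockout, and the second group is called knockout-labelled throughout. The study measured ICAM-1 protein on lung ILC2s of such mice by flow cytometry and states that the mice constitutively lack ICAM-1. Counts per gene do not show which exons the reads came from and give no measure of the protein. Of 13 ILC2 genes 6 were called (46.2%, against 13.8% of all genes tested). Il5, Il13, Id2 and Il2ra were lower (log2 fold changes of -0.76, -1.45, -0.56 and -0.51), and Klrg1 and Ptprc were higher (0.41 and 0.39). Gata3, Rora and Il1rl1 (the gene of ST2), chosen after their values were seen, were among the 7 not called and had normalized counts of 425 to 774 in every library. In these bulk libraries a smaller number of cells of a type and less RNA per cell cannot be told apart. All p-values rest on the spread between the 2 pools of a group, and each fit also drew on the spread of the other genes tested.

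The sequences near the starts of these genes are given first, since the binding motif of the MiT/TFE factors is what joins them in textbooks. RefSeq promoter windows (build GRCm38.p6, 250 bases before to 50 bases after a start) were at hand for 36 of the 43 genes, in 46 windows. Windows of Ctsb, Ctsh, Ctsw, Asah1, Npc1, Atp6v1b2 and Atp6v1h were not analysed here. Both strands were searched for TCACGTGA, for CACGTG, which lies within TCACGTGA, and for TCATGTG, whose reverse complement is CACATGA. TCACGTGA was found in 6 of the 46 windows (13%), those of Atp6v0d1, Atp6v1a, Ctsa, Ctsd, Gla and Mcoln1, against 0.974% of all 32851 windows and 1.91% of the windows of the genes tested. CACGTG was found in 12 of the 46 windows (26.1%), against 7.15% of all windows, and the genes it added were Atp6v0b, Ctsl, Gaa, Glb1, Lamp1 and Lgmn. TCATGTG was found in 8 of the 46 windows (17.4%), against 3.77% of all windows, in Atp6v0c, Ctsa, Ctss, Gla, Grn, Ppt1, Scarb2 and Tpp1. A match describes letters in a window and is not a measured binding site.

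The stretches that follow hold matches from genes of different roles, with every match of the motifs searched in capitals, and were chosen after the values were seen. The first 3 are 30 bases around a TCACGTGA match of Ctsd (chr7:142387908-142387937, minus strand), Mcoln1 (chr8:3500462-3500491, plus strand) and Atp6v1a (chr16:44139373-44139402, minus strand). The next 3 show repeated matches upstream of Gla (chrX:134601173-134601253, minus strand, TCACGTGA with TCATGTG between), Lamp1 (chr8:13159086-13159160, plus strand, CACGTG) and Atp6v0b (chr4:117887330-117887382, minus strand, CACGTG). The last is the TCATGTG match of Ctss (chr3:95526793-95526821, plus strand), the only match in the windows of called genes. Windows of the called genes Ctsh, Asah1 and Atp6v1h were not analysed.
Ctsd: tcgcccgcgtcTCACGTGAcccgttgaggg
Mcoln1: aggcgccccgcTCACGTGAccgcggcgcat
Atp6v1a: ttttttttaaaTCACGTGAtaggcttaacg
Gla: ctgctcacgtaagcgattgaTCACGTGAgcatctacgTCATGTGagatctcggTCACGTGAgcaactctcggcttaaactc
Lamp1: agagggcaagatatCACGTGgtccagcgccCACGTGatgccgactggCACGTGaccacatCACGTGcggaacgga
Atp6v0b: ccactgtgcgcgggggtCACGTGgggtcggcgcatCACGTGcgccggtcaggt
Ctss: ttgtggatgctTCATGTGacaagctccga

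Lysosomal genes were well expressed in the libraries of sorted ILC2s, which also held counts for marker genes of other lung cells, described below. Levels between genes were compared as CPM per kilobase of exon, and on this scale 34 of the 43 genes lay above the median of the tested genes in WT, and 7 lay among the top 10%. Ctsz, the gene of the carboxypeptidase cathepsin Z, was highest at 241 ± 14.8 (SD, n = 2 libraries, as for the levels that follow) in WT and 238 ± 14.6 in the knockout-labelled libraries. Ctsd, the gene of the aspartic protease cathepsin D, followed at 190 ± 2.88 in WT, above Psap at 166 ± 16.5 and below Ctsz by more than the SD of either. Psap encodes prosaposin, from which the saposin cofactors of sphingolipid breakdown are cut. Lamp1, a major glycoprotein of the lysosomal membrane, came next at 95.8 ± 0.989, and Atp6v0c, the proton-binding ring subunit of the V0 sector, at 80.8 ± 2.91. Ctsb at 68.0 ± 1.47 and Ctss at 67.3 ± 11.1 could not be ordered within their spread, and both encode cysteine proteases.

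The lowest genes included all 3 MiT/TFE factors. In WT, Tfeb was at 3.71 ± 0.62 and Tfe3 at 3.17 ± 0.204 CPM per kilobase, within the spread of each other and of Atp6v0a1 at 3.16 ± 0.0813. Ctsl at 2.73 ± 0.672 could not be placed below Tfe3 or Atp6v0a1 within its spread, and lower still were Npc1 at 1.7 ± 0.309 and Mitf at 0.648 ± 0.298. The order changed little between labels: 6 genes moved by more than 3 places among the 43. Ctsh, an aminopeptidase of the cathepsin family, moved the farthest, by 9 places, from 8.85 ± 1.44 in WT to 20.5 ± 1.8 in the knockout-labelled libraries. The order of these low genes depends on the length used: by the longest transcript Tfeb was at 8.98 CPM per kilobase in WT, above Gla at 7.71, Atp6v0a1 at 4.98 and Tfe3 at 4.64. With this length in place of all exons, 35 genes changed level by more than 1 SD, and the Spearman correlation of the 43 levels, which share the same counts, was 0.971.

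**Figure D1:**
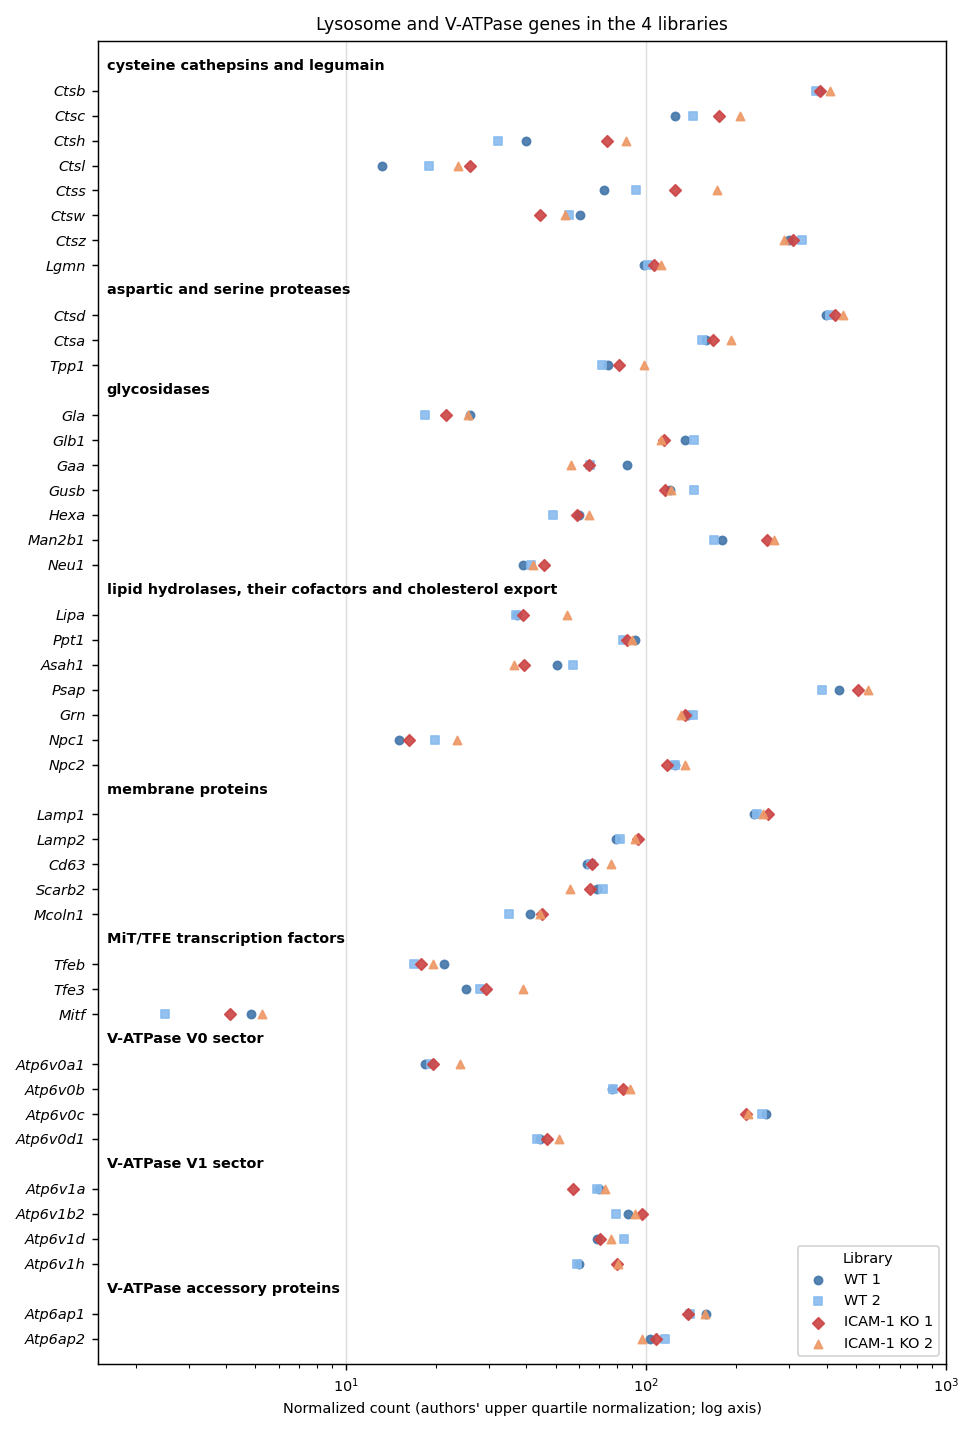
Normalized counts (log axis) of the 43 genes in each of the 4 libraries, grouped by role, with 1 symbol per library. WT 1 and WT 2 are circles and squares, and ICAM-1 KO 1 and 2 are diamonds and triangles; Ctsh, Ctss, Ctsc, Man2b1, Psap and Atp6v1h have both knockout-labelled libraries on the right of both WT libraries, and Asah1 has them on the left.

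The comparison of the labels asks which transcripts differ in libraries of sorted ILC2s when the mice are labelled as lacking ICAM-1. Of the 43 genes, 6 were higher in the knockout-labelled libraries at an adjusted p under 0.05 (14%), against 8.8% of the 11711 genes tested. Asah1 alone was lower (2.33%), against 4.97% of the genes tested, and 36 genes were not called. In either direction the share was 16.3% of the 43 genes and 13.8% of all genes tested. Before adjustment, 12 of the 43 genes had a p under 0.05, against 30.2% of all genes tested. A change of at least 2-fold was called for Ctsh alone, while 4.94% of the genes tested were called at that size upward and 0.538% downward. The median log2 fold change was 0.15, with a range of -0.48 to 1.18, and the median of all genes tested was 0.01. The log2 fold change was positive for 30 of the 43 genes (69.8%) and for 51.2% of all genes tested. In 23 of the 43 genes (53.5%) both knockout-labelled libraries lay above both WT libraries, as in 28.3% of 11709 genes, and in 7 (16.3%) they lay below, as in 31.3%. Summed over the 43 genes, the normalized count was 4730 and 4736 in WT against 5026 and 5344. Of the 43 intervals of 95% around the log2 fold change, 39 lay within 1 of 0, among them 34 of the 36 genes not called. Without WT 1 the genes called higher fell to 2 and without ICAM-1 KO 2 to 3, and leaving out any single library left no gene lower. With no filter on low counts 2 genes were called higher, Ctsh and Man2b1, and none lower.

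**Figure D2:**
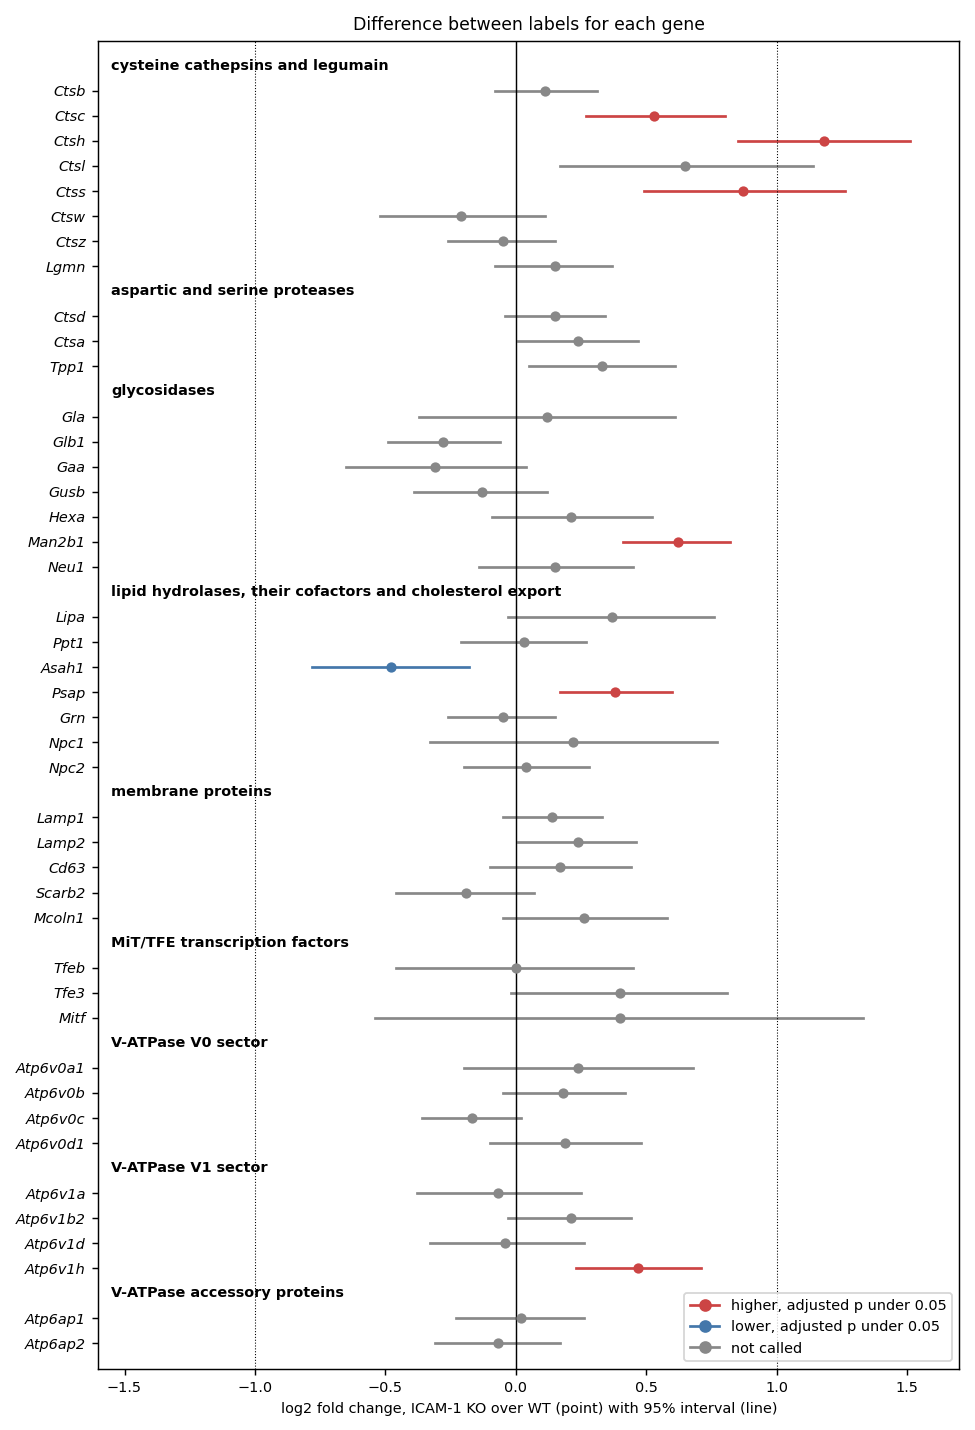
The log2 fold change of each of the 43 genes (ICAM-1 KO over WT, points) with its 95% interval (lines), from edgeR, grouped by role, in red or blue where the adjusted p was under 0.05. Ctsh lies farthest to the right at 1.18 and Asah1 farthest to the left at -0.48, and most intervals of the V-ATPase genes cross 0.

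Cysteine cathepsins held 3 of the 6 genes called higher, 37.5% of 8 genes, against 8.8% of all genes tested. These 8 proteases (Ctsb, Ctsc, Ctsh, Ctsl, Ctss, Ctsw and Ctsz, with legumain, Lgmn) had a median log2 fold change of 0.34. Ctsh (chromosome 9, 90054152 to 90076089, plus strand, mm10) had normalized counts of 39.9 and 32.1 in WT and 74.3 and 85.6 in the knockout-labelled libraries. The groups were far apart, with a log2 fold change of 1.18 (standard error, SE, 0.146, adjusted p = 0.00192). The call held in every alternative and without any single library, where the log2 fold change was 1.03 to 1.34. Ctsh lies on the same chromosome as Icam1, as do Glb1 and Hexa, and the nearest of these genes is 38.5 Mb away from Icam1.

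Ctss encodes cathepsin S, which trims the invariant chain of MHC class II in antigen-presenting cells. Its normalized counts were 72.6 and 93.0 in WT and 125 and 172 in the knockout-labelled libraries, so the groups did not overlap and each was spread widely. The log2 fold change was 0.87 (SE 0.17, adjusted p = 0.0131), and without WT 1 the adjusted p was 0.0799. A pseudogene, Hmgb1-ps5, overlaps Ctss (chromosome 3, 95526786 to 95556403, plus strand) on the same strand and could share reads with it. Ctsc encodes cathepsin C, the dipeptidyl peptidase that activates granule serine proteases such as granzymes. It had 125 and 144 normalized counts in WT against 175 and 206, a log2 fold change of 0.53 (SE 0.116, adjusted p = 0.0195). The adjusted p of Ctsc rose to 0.107 without WT 1 and to 0.0635 without ICAM-1 KO 2. The gene (chromosome 7, 88278085 to 88310888, plus strand) is overlapped by Gm26522 on the other strand, and the sources used here do not say whether reads were counted by strand.

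The other cysteine proteases were not called. Ctsl, the gene of cathepsin L, was the nearest, with 13.2 and 19.0 normalized counts in WT against 26.0 and 23.7, and its log2 fold change was 0.65 (SE 0.215, adjusted p = 0.0761). With DESeq2 its adjusted p was 0.0445. The abundant Ctsb had 376 and 369 normalized counts against 380 and 410, and its 95% interval was -0.08 to 0.31. Ctsz had 299 and 331 against 309 and 288, with an interval of -0.26 to 0.15. Both intervals lie within 0.31 of 0. Ctsw, known from cytotoxic lymphocytes, had 60.3 and 55.3 normalized counts against 44.3 and 53.9, and Lgmn, which encodes an asparaginyl endopeptidase, had 98.4 and 102 against 106 and 112.

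Aspartic and serine proteases (Ctsd, Ctsa and Tpp1) had 0 of 3 genes called and 2 at an unadjusted p under 0.05. Ctsd had 398 and 412 normalized counts in WT against 426 and 454, a log2 fold change of 0.15 with an interval of -0.04 to 0.34. Ctsa, the gene of the protective protein that keeps β-galactosidase and neuraminidase stable, had 158 and 154 against 167 and 192. Tpp1 encodes a tripeptidyl peptidase and had 74.5 and 71.6 against 81.6 and 98.4. Each of the 3 genes had its knockout-labelled libraries above both WT libraries by small steps. The adjusted p of Tpp1 was 0.108 with all libraries and 0.046 without ICAM-1 KO 1.

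Among 7 glycosidases, Man2b1 was called (14.3%, against 13.8% of all genes tested) and the other 6 were not. Man2b1 (chromosome 8, 85083270 to 85098282, plus strand) encodes the lysosomal α-mannosidase that trims mannose from glycoproteins. Its normalized counts were 179 and 168 in WT and 254 and 268 in the knockout-labelled libraries, and the gap between the groups was several times the gap within either. The log2 fold change was 0.62 (SE 0.0896, adjusted p = 0.00389), and the call held in every alternative and without any single library. Glb1, the gene of β-galactosidase, went the other way without being called, with 135 and 145 normalized counts against 115 and 112 (log2 fold change -0.28, adjusted p = 0.0836). Gaa, the gene of the acid glucosidase that breaks down glycogen, had 86.8 and 64.9 against 64.5 and 56.1, and WT 1 alone stood apart. For Gusb, Hexa, Gla and Neu1, which encode β-glucuronidase, the α subunit of hexosaminidase, α-galactosidase and neuraminidase, log2 fold changes lay between -0.13 and 0.21.

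The lipid hydrolases, their cofactors and the cholesterol exporters held a call in each direction, 28.6% of 7 genes, against 13.8% of all genes tested. Psap (chromosome 10, 60277627 to 60302597, plus strand) had 439 and 387 normalized counts in WT and 507 and 551 in the knockout-labelled libraries, the last being the highest value of any of the 43 genes. Its log2 fold change was 0.38 (SE 0.0955, adjusted p = 0.0319), and the adjusted p was 0.0560 without WT 1, 0.165 without WT 2 and 0.103 without ICAM-1 KO 2. It was 0.0521 with the filterByExpr filter and 0.115 with no filter on low counts. Asah1 (chromosome 8, 41340197 to 41374773, minus strand) encodes acid ceramidase, which splits ceramide with the help of a saposin. Asah1 had 50.5 and 57.2 normalized counts in WT against 39.2 and 36.4, a log2 fold change of -0.48 (SE 0.132, adjusted p = 0.0427). Its call was lost without any single library, with adjusted p-values of 0.0698 to 0.171, with the older quasi-likelihood test (adjusted p = 0.0570) and with no filter on low counts (adjusted p = 0.0920). Psap and Asah1 thus had opposite directions in libraries of the same label.

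The other lipid genes were not called. Lipa, the gene of the lysosomal acid lipase, had 37.3 and 36.8 normalized counts in WT against 38.9 and 54.6, so ICAM-1 KO 2 alone stood apart, and its log2 fold change was 0.37 (adjusted p = 0.200). Without ICAM-1 KO 1 the adjusted p was 0.0392 and without ICAM-1 KO 2 it was 0.85. Npc1 and Npc2, which pass cholesterol out of the lysosome, had log2 fold changes of 0.22 and 0.04. Ppt1, which removes palmitate from proteins, had one of 0.03, and Grn, the gene of progranulin, one of -0.05. All 4 adjusted p-values were at least 0.589.

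**Figure D3:**
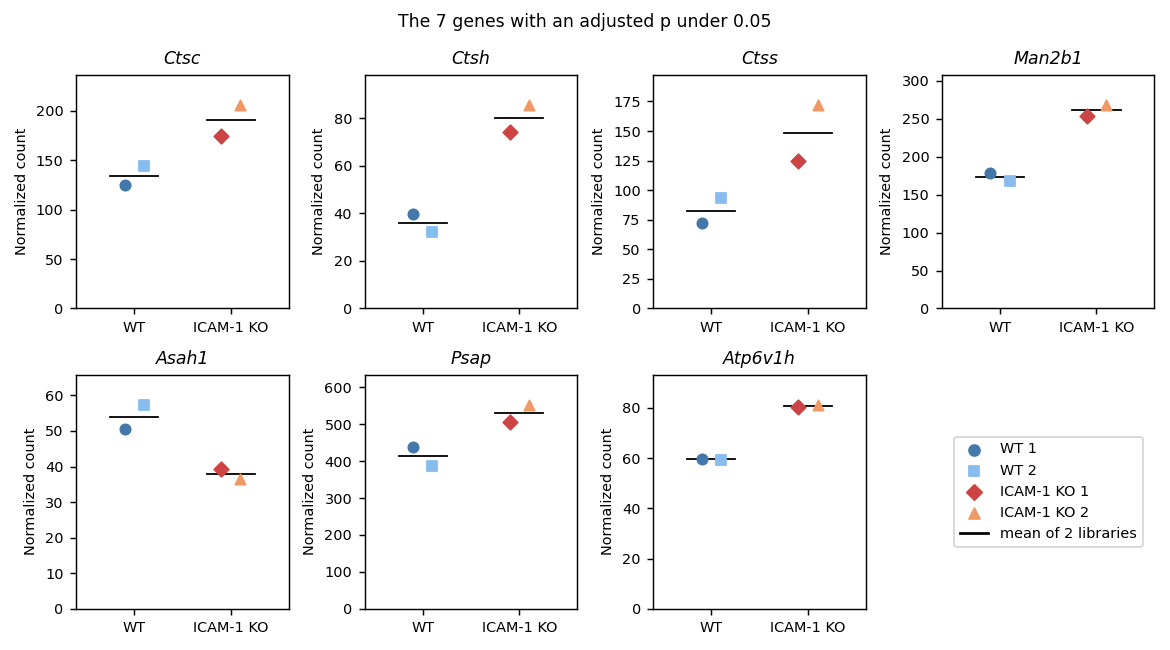
Normalized counts of the 7 genes with an adjusted p under 0.05 in the 4 libraries (points) with the mean of the 2 libraries of each label (lines), each panel on its own linear axis from 0. Within Atp6v1h and Man2b1 the libraries of a label lie close together, and in Ctss they are spread from 125 to 172 in the knockout-labelled libraries.

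Lysosomal membrane proteins and the MiT/TFE factors held no called gene. Lamp1 had 229 and 235 normalized counts in WT and 255 and 246 in the knockout-labelled libraries, and Lamp2, its partner in the membrane coat, had 79.5 and 81.7 against 94.2 and 92.2. The groups did not overlap in either, and the adjusted p was 0.303 for Lamp1 and 0.147 for Lamp2. Cd63, a tetraspanin of late endosomes, had 63.5 and 65.8 against 66.2 and 76.4. Mcoln1, the gene of the calcium channel TRPML1, had 41.2 and 34.9 against 45.1 and 44.4. Scarb2, the gene of the receptor that carries glucocerebrosidase to the lysosome, had 68.9 and 72.1 against 65.1 and 56.0, the only negative change of these 5 genes.

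Tfeb had 21.2 and 16.9 normalized counts in WT against 17.8 and 19.5, with fully mixed groups and a 95% interval of -0.46 to 0.45. Tfe3 had 25.2 and 28 against 29.4 and 39.1 (log2 fold change 0.40, adjusted p = 0.183). Mitf had 4.82 and 2.5 against 4.1 and 5.26, the lowest counts of the 43 genes, and an interval of -0.54 to 1.33 that a change of 2-fold could lie in. These are RNA levels, and the activity of these factors is known to be set largely by where the protein is in the cell, which was not measured. None of the 12 genes with CACGTG in their window was called by edgeR, against 13.8% of all genes tested, and Ctsl among them was called by DESeq2. Before adjustment, Ctsl, Ctsa and Glb1 of these 12 had a p under 0.05. Of the 7 called genes 4 (Ctsc, Ctss, Man2b1 and Psap) had windows, and 0 of these 5 windows held CACGTG, against 9.93% of the windows of the genes tested.

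Of the 10 genes of the proton pump 1 was called (10%, against 13.8% of all genes tested). Summed over the 10 V-ATPase genes, the normalized count was 939 and 931 in WT and 916 and 959 in the knockout-labelled libraries, so that the sums overlapped, and the median log2 fold change was 0.10. Atp6v0c, which had a negative change, was the largest term of these sums. Both knockout-labelled libraries lay above both WT libraries in 5 of the 10 genes (50%), as in 28.3% of all genes, and below in 1 (10%), as in 31.3%. Of the 4 genes of the V0 sector none was called by edgeR, and none had an unadjusted p under 0.05 or was called in any alternative. Atp6v0c, the most abundant pump gene, had 252 and 243 normalized counts against 215 and 218, a log2 fold change of -0.17 with an interval of -0.36 to 0.02. Atp6v0b, Atp6v0d1 and Atp6v0a1, which encode the second ring subunit, the link to V1 and the membrane subunit with the proton channels, had log2 fold changes of 0.18, 0.19 and 0.24.

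In the V1 sector, Atp6v1h was the only pump gene called. It encodes subunit H, which regulates the coupling of V1 to V0. Atp6v1h (chromosome 1, 5070018 to 5162529, plus strand) had 59.8 and 59.1 normalized counts in WT and 80.4 and 81.0 in the knockout-labelled libraries, the tightest groups of the called genes. The log2 fold change was 0.47 (SE 0.106, adjusted p = 0.0225), and with any single library left out it was 0.45 to 0.48 with adjusted p-values of 0.0509 to 0.0823. Rgs20 overlaps it on the other strand. The catalytic subunit gene Atp6v1a had 69.9 and 68.8 against 57.1 and 72.9, its partner Atp6v1b2 had 87.0 and 79.7 against 96.7 and 91.9, and the stalk gene Atp6v1d had 68.8 and 84.7 against 70.3 and 76.5. None of these 3 was called. The accessory genes Atp6ap1 and Atp6ap2 had log2 fold changes of 0.02 and -0.07, with intervals of -0.23 to 0.26 and -0.31 to 0.17.

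Other genes of lysosomes were read from wider lists. Of 82 listed genes, 80 were in the count table and 76 were tested, with 7 higher (9.21%, near the 8.8% of all genes tested), 1 lower (1.32%, against 4.97%) and a median log2 fold change of 0.12. Of 28 further hydrolases and cofactors 2 were higher, of 18 membrane proteins 3, of 9 pump subunits 1, of 14 genes of lysosomal mTORC1 control 1 higher and 1 lower, and of 7 sorting genes none was called while 1 had an unadjusted p under 0.05. Atp6v0d2, a V0 subunit known from osteoclasts and macrophages, had 2.84 and 2.41 normalized counts in WT and 10.5 and 13.5 in the knockout-labelled libraries. Its log2 fold change was 2.24 (SE 0.333, adjusted p = 0.00422). Its paralog Atp6v0d1, with a log2 fold change of 0.19, had the higher normalized count in every library (43.3 to 51.4). Acp5, the gene of the tartrate-resistant acid phosphatase of the same cells, had 37.1 and 38.6 against 59.5 and 61.2 (log2 fold change 0.70, SE 0.122, adjusted p = 0.00851). Acp5 (chromosome 9, 22126727 to 22135711, minus strand) lies on the chromosome of Icam1, nearer to it than any of the 43 genes. Whether this position bears on the level of Acp5 was not tested. The calls of Atp6v0d2 and Acp5 held in every alternative and without any single library.

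Cd68, a lysosomal glycoprotein used as a macrophage marker, had 12.1 and 10.8 normalized counts against 20.3 and 26.4 (log2 fold change 1.06, adjusted p = 0.0169), and leaving out WT 1, WT 2 or ICAM-1 KO 2 gave adjusted p-values of 0.0588, 0.0796 and 0.0770. Rragd, the gene of a Rag GTPase that recruits mTORC1 to the lysosome, had 0 and 27 counts in WT against 135 and 163 (adjusted p = 0.0134), and 0 counts allow up to 3. Its adjusted p was 0.0501 without WT 1, 0.352 with DESeq2, 0.0650 with no filter and 0.0648 with the older quasi-likelihood test. Lamtor1, which anchors the Ragulator complex of mTORC1 signaling on the lysosome, was the lower gene, with normalized counts of 75.4 and 70.0 against 54.3 and 51.8 (log2 fold change -0.43, adjusted p = 0.0380). The call of Lamtor1 was lost without any single library, with adjusted p-values of 0.0780 to 0.140. Ctsk and Ostm1, also called higher, had adjusted p-values of 0.0440 and 0.0488. Ctsk, the cathepsin of osteoclasts, had 1 and 93 counts in WT against 189 and 300, and its adjusted p without WT 1 was 0.1. Its call was lost in 5 of 8 alternatives, with an adjusted p of up to 0.46, and that of Ostm1 in 7 of 9 and without any single library.

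**Figure D4:**
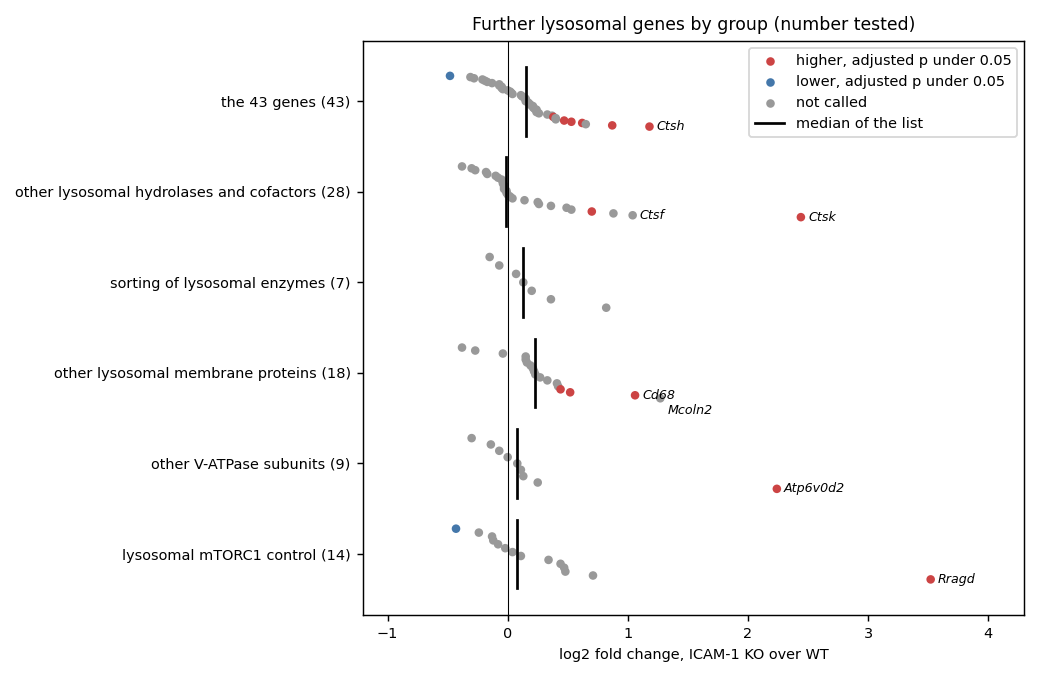
Log2 fold changes (ICAM-1 KO over WT) of the 43 genes and of 5 wider lists of lysosomal genes, with 1 point per gene tested, in red or blue where the adjusted p was under 0.05, and a bar at the median of each list. The medians lie near 0, and Rragd, Ctsk and Atp6v0d2 lie beyond 2.

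Genes that mark other lung cells differed between the same libraries. Of 16 markers of macrophages and monocytes, 14 were tested, 10 were higher (71.4%, against 8.8% of all genes tested) and none was lower by edgeR, with a median log2 fold change of 1.24. All 14 had an unadjusted p under 0.05, as had 30.2% of all genes tested. In 13 of them both knockout-labelled libraries lay above both WT libraries, as in 28.3% of all genes. The other, Ear1, went the opposite way, with normalized counts of 4.55 and 7.73 in WT against 1.8 and 3.14 (log2 fold change -1.29, not called). The summed normalized count of the 16 markers was 531 and 516 in WT against 888 and 1103. Lyz2, a lysozyme gene, had 169 and 172 against 344 and 577, and Ccr2, which was not called, had 254 and 236 against 323 and 279. Lyz2 and Ccr2 were the largest terms of these sums. None of the 16 markers was at 0 in all libraries. The sums of the 33 lysosomal genes other than the pump were 3791 and 3805 against 4110 and 4386. Markers of endothelium were higher for 10 of 10 genes, with sums of 161 and 165 against 416 and 438. Those of lung epithelium were higher for 6 of 9 genes tested, with sums of 453 and 222 against 606 and 1440, and those of dendritic cells for 2 of 4, with sums of 181 and 231 against 237 and 253. The largest terms of these sums in WT were Scgb1a1 (338 and 142 against 123 and 510) and Ccr7 (149 and 199 against 184 and 190). Neither was called. B cell markers were higher for 5 of 7 genes (sums of 240 and 384 against 588 and 699), and T cell markers for 5 of 9 (674 and 747 against 1038 and 1221). Their largest terms, Jchain (74.2 and 234 against 266 and 442) and Trbc2 (245 and 239 against 269 and 295), were not called. Neutrophil markers were higher for 4 of 7 genes (153 and 83.6 against 169 and 150), and NK cell and ILC1 markers for 1 of 4 (18.6 and 31.9 against 43.2 and 32.3). Among the neutrophil markers, Mpo and Elane had negative changes and overlapping groups, and neither was called. Mpo, the largest term of the neutrophil sum in WT 1, had 80.3 and 21.9 against 7.85 and 24.3. Elane had 14.4 and 4.43 against 0.694 and 5.42. Eosinophil, basophil and mast cell markers were higher for 2 (Ccr3 and Il5ra) and lower for 2 of 8, with sums of 560 and 494 against 502 and 685. Cpa3 was the largest term of these sums. The lower genes were Epx, with 1027 and 739 counts against 0 and 0, and Prg2, with 1583 and 1041 against 33 and 118. Mesenchyme markers were called for 0 of 6, with 1 at an unadjusted p under 0.05 and sums of 20.3 and 59.1 against 49.7 and 90.2. The ILC2 markers had sums of 7305 and 7935 against 6549 and 6881.

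ICAM-1 KO 2 had the highest sum of the macrophage, dendritic cell, epithelial, endothelial, mesenchyme, B cell and T cell markers. It also had the highest sum of the eosinophil, basophil and mast cell markers. The sums of neutrophil and of NK cell and ILC1 markers were highest in ICAM-1 KO 1, and that of ILC2 markers in WT 2. ICAM-1 KO 2 had the higher normalized count of its pair in 6 of the 6 lysosomal genes called higher, by a small step in Atp6v1h (80.4 and 81.0). Over all 43 genes ICAM-1 KO 2 was above ICAM-1 KO 1 in 30 (69.8%), against 51.3% of 11709 genes. WT 2 was above WT 1 in 22 of the 43 genes (51.2%), against 51.2%. The study sorted the cells before sequencing and reports a high sort purity for the ILC2s it sequenced. The part of these other cells in the lysosomal results was not tested.

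**Figure D5:**
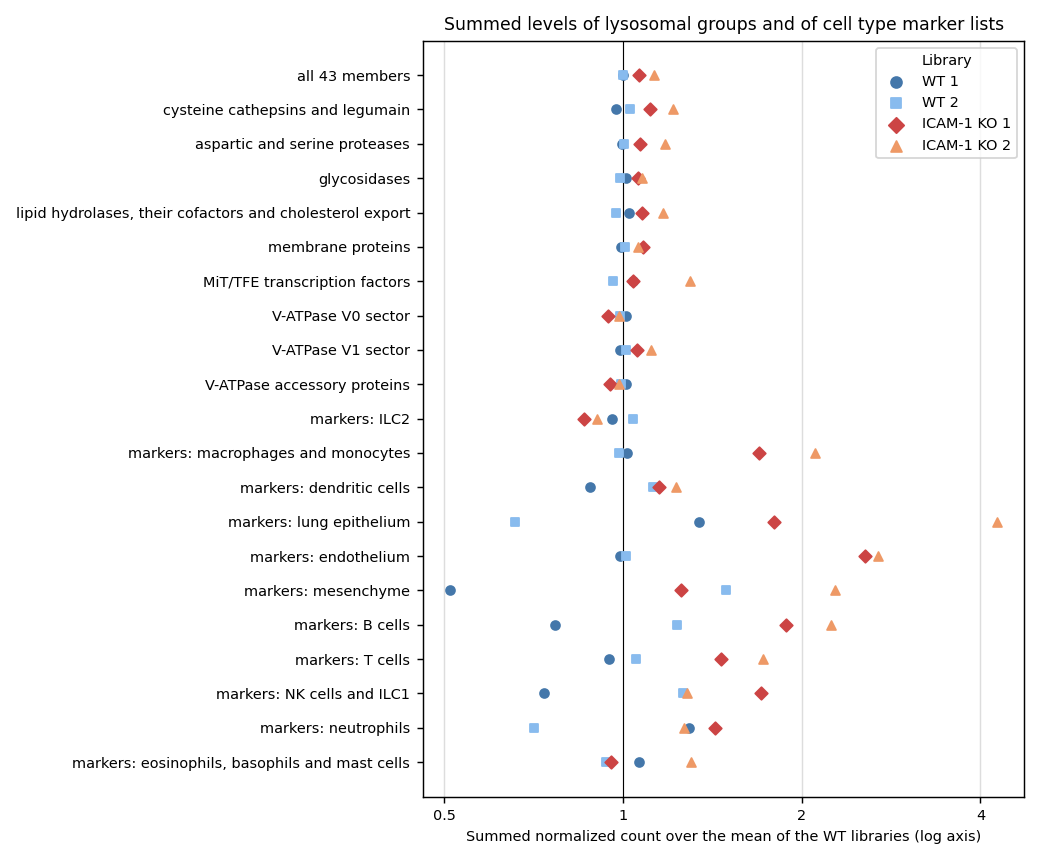
Summed normalized count of each role of the 43 genes and of each marker list in the 4 libraries, divided by the mean of the WT libraries (log axis), with 1 symbol per library. The sums of the V-ATPase groups lie close to 1, whereas those of macrophage, epithelial and endothelial markers lie well above 1 in both knockout-labelled libraries.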

How the data were processed

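RNA of sorted lung ILC2s was sequenced from 2 WT and 2 ICAM-1 KO pools of 4 mice, and the sample titles gave the groups and the numbers of the libraries. From 10 ng of RNA the authors made cDNA with a SMARTer low-input kit, sequenced it on a NextSeq 500, aligned the reads with STAR to mm10 and estimated expected counts per gene with Partek and GENCODE M20. These deposited expected counts are not normalized, and 61.1% are whole within 0.01. For 18324 genes the authors deposited a signal after upper quartile normalization, which equals the count plus 1 times 1 factor per library and is called the normalized count here. The libraries carry no molecular identifiers, so floors of 3 counts cover counting error only.

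Expected counts were rounded and tested with edgeR 4.0.16 in R 4.3.3 (quasi-likelihood test, upper quartile factors, no block), with Benjamini-Hochberg adjustment. The 11711 genes tested were those whose normalized count reached a mean of 1 and a sum of 10. The study states this filter but reports a larger number of transcripts. The script was tested on simulated counts with 200 of 11711 genes changed. There edgeR recovered 81.3% of the changed genes, and 70.3% of those with a log2 change of 1. Of its calls 10.1% were false, above the 5% that the threshold aims at. The alternatives were TMM factors, DESeq2 1.42.0, no filter, at least 10 counts in every library, filterByExpr, the older quasi-likelihood test, limma 3.58.1 on log2 normalized counts plus 1 or plus 0.1, a replicate block, and each library left out, where a lone library is assumed to vary like the others. Gene lengths came from GENCODE M21, in which 42 of the 43 genes have the coordinates of the deposited table, and promoters from RefSeq. The genes and lists were chosen with earlier results of these data known. All 43 genes were to be named, with full statistics for those called, up to 5 called genes in each direction of the wider lists, and up to 3 of the highest of each marker list. Ctsk, Ostm1, Gata3, Rora, Il1rl1, Il13, Il2ra, Klrg1, Ear1, Elane, Epx, Prg2, Ccr3, Il5ra and the printed promoters were chosen outside this rule, after their values were seen. Of the 43 genes 5 are overlapped by another gene on the same strand and 15 on the other strand. No proteins were printed, and 1 called gene of the wider lists is counted but not reported here.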

Additional observations from a re-analysis of the deposited data

How the results depend on the processing

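Of the 43 genes, Ctsh and Man2b1 were called under all 9 alternatives and without any single library, and no log2 fold change of a called gene changed sign. With no filter on low counts 334 genes of all were higher and 201 lower, 2 and 0 of the 43 genes, and 2 and 0 of the wider lists, and more genes entered the adjustment there. With DESeq2 930 genes were lower. With the older quasi-likelihood test 0 of the 43 genes were lower, and 4 genes of the wider lists were higher, as they were with at least 10 counts in every library and with filterByExpr. Leaving out each library gave 479 to 948 higher and 158 to 388 lower genes, 2 to 7 higher and 0 to 0 lower of the 43 genes, 1 to 2 at 2-fold or more, 2 to 7 higher and 0 to 0 lower in the wider lists, and medians of the 43 genes of 0.09 to 0.20. The lowest counts came without WT 1 (2 of the 43 genes, 2 of the wider lists), and the cause was not tested. Samples of the same number did not deviate together (correlation -0.0582), so the numbers are not taken as a pairing. The replicate block gave 1077 higher and 638 lower genes, and 6 higher and 0 lower of the 43 genes (Asah1, adjusted p = 0.0530). The widest standard error was that of Mitf, at 0.414 against a median of 0.118 over the 43 genes.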
